A study of Mus musculus with 57 samples.

Results

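Mitosis and spindle genes are the 39 genes described here, out of 21118 genes in the deposited count table. They were found by symbol from a named list of cyclins and kinases of mitosis, spindle checkpoint and kinetochore proteins, condensin subunits, spindle motors and cytokinesis proteins. All 39 were found, and all 39 passed the filter on low counts that left 19793 genes for testing. The question was how the levels of these messages declined over 6 ages of the postnatal mouse cortex, with both sexes pooled.

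Ribosome-bound messenger RNA was measured in 53 libraries, each from its own mouse. Every mouse was of the C57BL/6 strain and carried Aldh1l1-L10-GFP, a ribosomal protein tagged with green fluorescent protein under the promoter of the astroglial gene Aldh1l1. Whole cortex was treated with cycloheximide, tagged polysomes were pulled down with an antibody to GFP, and poly(A) RNA was sequenced. This assay is known as translating ribosome affinity purification (TRAP). The groups were postnatal day 1 (P1, 8 libraries), P4 (8), P7 (12), P14 (10), P35 (6) and adult (9, age not given in the labels). The labels name no treatment, and all groups carried the transgene, so no group without it and no unpurified cortex was compared here. Aldh1l1 is known to be expressed by neural progenitors as well, so the tag is not limited to mature astrocytes.

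Cells enter mitosis when cyclin-dependent kinase 1 (Cdk1) is switched on by cyclins A and B. Condensins then compact the chromosomes, kinetochores attach them to spindle microtubules, and the spindle checkpoint holds back the anaphase-promoting complex (APC/C) until every chromosome is attached. Most of these genes are transcribed only in the G2 and M phases, so in a tissue their messages are widely read as a sign of dividing cells. In rodent cortex, astrocytes are largely made by local division in the first weeks after birth. In bulk RNA such as this, fewer dividing cells and less message per cell cannot be told apart.

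Libraries are named here by age, labelled sex (F or M) and replicate number, and the first digit of that number marks a replicate set that runs across ages. P7 MS1, FS1, FS2 and MS2 form a set S found at P7 alone. In the model of age and replicate set used below, the set term takes up their level. Fitted changes that involve P7 therefore rest on the other P7 libraries. Total counts ran from 14768178 to 48541139 with a median of 24033399. Levels are in CPM, which divides each count by the size of its library after adjustment by the trimmed mean of M-values (TMM). A pair of libraries went against the age order. The summed CPM of the 39 members was 451 in P14 M6, against 106 to 200.2 in the other P14 libraries. It was 170 in P7 M6, against 331 to 715 in the other P7 libraries. The summed CPM of 12 myelin genes, which climb with age, was 326 in P14 M6 and 2950 in P7 M6, and the same sum was 665 to 2514 in the other P14 libraries and 238 to 633 in the other P7 libraries. Both libraries stand apart in the direction of the other age, and counts of called members and medians that rest on P7 or P14 are given with and without them. Another 3 libraries had at least 10 counts in fewer genes than the rest, 10085 in P1 F4, 13834 in P7 F40 and 14530 in P14 M4, against 15531 or more elsewhere. P1 F4 had a count for only 21 of the 39 members, and its Aldh1l1 level was 9.75 CPM, against 32.4 to 437 CPM in all other libraries. In 11 libraries the Y-linked transcripts (summed CPM of Ddx3y, Eif2s3y, Kdm5d and Uty, without TMM) went against the labelled sex. The sum was above 1 CPM under a female label or below 1 CPM under a male label. X-linked Xist was not part of this rule. Among these libraries P7 F30, Adult F2, Adult F3 and P7 F10, labelled female, held both kinds of transcript. Their Xist levels were 47.2, 26.5, 11.8 and 5.5 CPM, beside Y-linked sums of 17.7, 5.67, 7.96 and 3.84 CPM.

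The mitosis and spindle genes fell together over the 6 ages, by a median of 4.06 on the log2 scale between P1 and adulthood. Across the 39 members the median of the fitted levels, as a percentage of each gene's own P1 level, was 108% for P4, then 48.5% for P7, 17.3% for P14, 7.22% for P35 and finally 5.99% for adults. Leaving out P7 M6 and P14 M6, the medians in the same order were 110%, 54.3%, 13.3%, 7.26% and 6.29%. The lowest of these at P14 was Ect2 at 8.98% and the highest below the P1 level was Mad2l1 at 41.4%. In adults Cdk1 was lowest at 1.82%. Anln stood apart from all others at 132% at P14, 290% at P35 and 296% in adults.

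All 39 members differed over the 6 ages by edgeR's quasi-likelihood F test at a Benjamini-Hochberg adjusted p under 0.05, in a model of age and replicate set. This was true of 47% of all genes tested. Between adults and P1, 37 members were lower, 1 was higher and 1 did not pass. Of all genes tested, 44.3% passed in this comparison, 21.2% as lower and 23.1% as higher in adults. The median log2 change was -4.06 over the members and 0.05 over all genes tested. Within replicate sets the median adult minus P1 change of the members was -4.62 in set 1, -4.49 in set 2, -3.47 in set 3, -1.31 in set 4 and -3.04 in set 6. Set 4 includes P1 F4, the library with counts for 21 members, whose part in that smaller value was not tested.

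**Figure D1:**
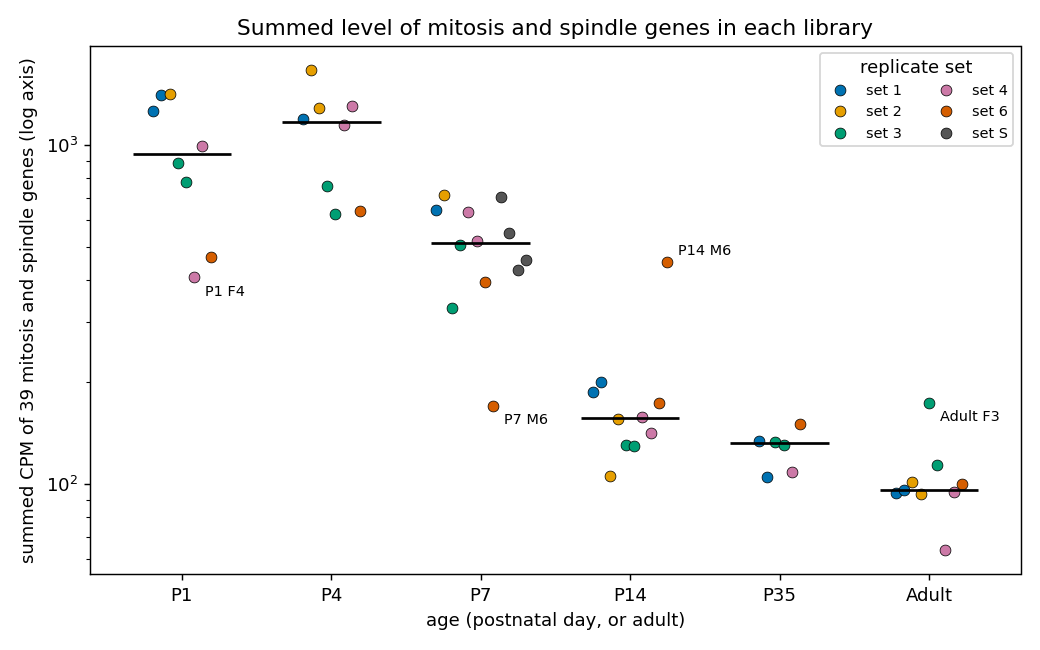
Each point is the summed CPM of the 39 mitosis and spindle genes in 1 library (vertical axis, logarithmic), by age (horizontal axis) and coloured by replicate set. The horizontal lines are medians. Sums were 63.9 to 174 CPM in adults, against 407 to 1412 CPM at P1. P14 M6 at 451 CPM and P7 M6 at 170 CPM lie on the wrong side of their age groups.

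The summed level shows the size of the decline in each library. It was 407 to 1412 CPM at P1 with a median of 939, then 627 to 1666 at P4 with a median of 1171, and 170 to 715 at P7 with a median of 516. It was 106 to 451 at P14 with a median of 156, 105 to 150 at P35 with a median of 132, and 63.9 to 174 in adults with a median of 96.2. No adult library reached the level of any P1 library. Adult F3, at 174 CPM, was the highest of the adults, and the other 8 adult libraries ran from 63.9 to 114 CPM.

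Promoters were compared because the members moved together. Genes of the G2 and M phases are known to carry a cell cycle homology region (CHR, core TTTGAA) and CCAAT boxes close to their start, while many S-phase genes carry E2F sites. The promoters are those listed by RefSeq on GRCm38.p6, from 250 bases before to 50 after the first listed start, and 34 of the 39 members had one. The stretches below lie before the start and outside the annotated gene. They are shown for the members with the largest fall in 4 of the 8 roles described below (Cdk1, Ube2c, Top2a, Kif11), for Cdc20, on which the spindle checkpoint acts, for a member with one of the smallest falls (Mad2l1) and for the member that was higher in adults (Anln). Capitals mark TTTGAA or CCAAT on either strand (TTCAAA and ATTGG on the strand printed).
Cdk1 (chr10:69352939-69353062, minus strand): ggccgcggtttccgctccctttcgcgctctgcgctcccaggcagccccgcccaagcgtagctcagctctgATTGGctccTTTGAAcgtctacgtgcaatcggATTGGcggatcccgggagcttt
Cdc20 (chr4:118437353-118437493, minus strand): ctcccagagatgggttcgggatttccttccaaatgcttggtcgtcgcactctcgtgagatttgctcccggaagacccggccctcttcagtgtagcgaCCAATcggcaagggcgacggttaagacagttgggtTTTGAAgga
Ube2c (chr2:164769779-164769897, plus strand): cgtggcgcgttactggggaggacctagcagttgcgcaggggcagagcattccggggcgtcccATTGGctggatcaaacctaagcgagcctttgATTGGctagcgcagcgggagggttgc
Top2a (chr11:99024190-99024339, minus strand): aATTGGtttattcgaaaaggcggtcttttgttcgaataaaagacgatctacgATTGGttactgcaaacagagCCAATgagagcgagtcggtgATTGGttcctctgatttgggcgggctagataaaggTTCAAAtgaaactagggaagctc
Kif11 (chr19:37376232-37376381, plus strand): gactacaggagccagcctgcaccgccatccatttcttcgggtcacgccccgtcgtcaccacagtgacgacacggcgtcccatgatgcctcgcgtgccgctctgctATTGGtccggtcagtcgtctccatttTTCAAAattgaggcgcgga
Mad2l1 (chr6:66535071-66535220, plus strand): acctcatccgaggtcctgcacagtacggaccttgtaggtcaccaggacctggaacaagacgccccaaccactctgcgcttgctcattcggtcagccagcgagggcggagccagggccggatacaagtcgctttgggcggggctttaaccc
Anln (chr9:22389207-22389356, minus strand): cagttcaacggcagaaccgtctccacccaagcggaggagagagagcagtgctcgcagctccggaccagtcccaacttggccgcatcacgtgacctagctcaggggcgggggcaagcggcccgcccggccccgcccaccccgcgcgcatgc

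The printed stretches of Cdk1, Cdc20, Top2a and Kif11 hold both motifs, and that of Ube2c holds CCAAT boxes on the opposite strand. Those of Mad2l1 and Anln hold neither. Over the whole window Ube2c and Anln hold TTTGAA as well, Anln in 2 places after its start. The 7 genes shown do not stand for a relation between the motifs and the size of the fall. Bub1 and Ccnb1, with changes of -5.12 and -4.85 between adults and P1, hold CCAAT but no TTTGAA, and Espl1 and Smc2, at -1.27 and -1.61, hold both. Over the whole window, TTTGAA on either strand was in 26 of the 34 member promoters (76.5%), against 12.3% of the 13134 genes of the count table with a promoter. CCAAT was also in 26 of the 34, against 37.8% of those genes. Both motifs were in 23 of the 34 (67.6%), against 5.03%. An E2F core (TTTCCCGC, TTTGGCGC, TTTCGCGC or TTTGCCGC, either strand) was in 2 of the 34 (5.88%), against 3.64%. In 83 promoters of other mitotic genes these shares were 47% for TTTGAA, 59% for CCAAT, 31.3% for both and 14.5% for the E2F core. The motif pair was thus not limited to the members. In 35 promoters of DNA replication genes the shares were 17.1% for TTTGAA, 60% for CCAAT, 8.57% for both and 31.4% for the E2F core. A match is a run of letters and not a shown binding site, and no match to one of these motifs is a match to another.

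**Figure D2:**
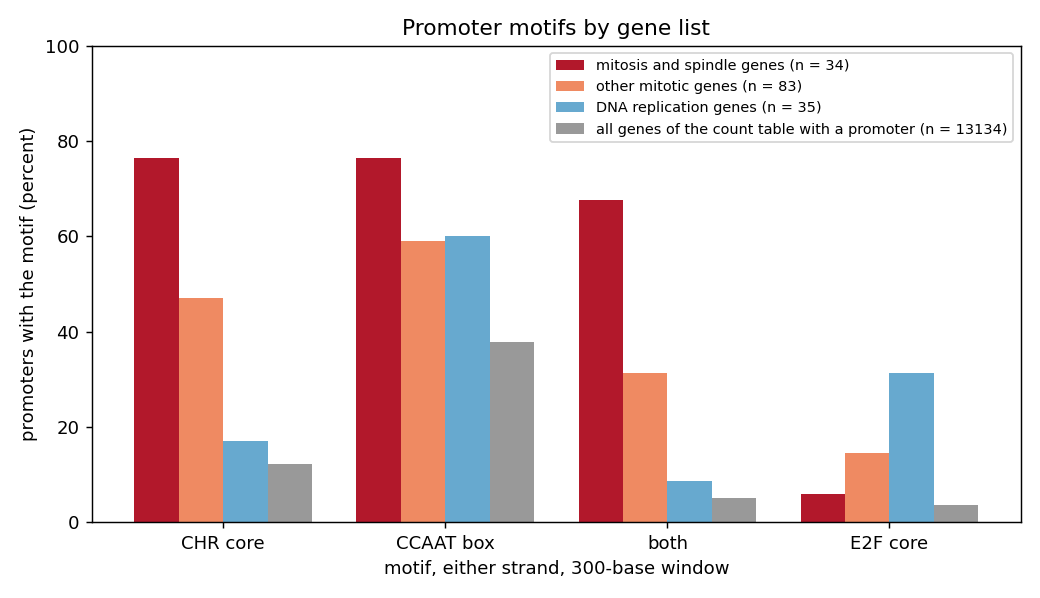
Bars give the percentage of promoters (vertical axis, from 0) that hold each motif (horizontal axis) on either strand of a 300-base window, for the mitosis and spindle genes, other mitotic genes, DNA replication genes and all genes of the count table with a promoter. The mitosis and spindle genes hold the CHR core and the CCAAT box together in 67.6%, against 31.3% of other mitotic genes and 5.03% of all genes.

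The kinases and cyclins that start mitosis had the lowest median change of the 8 role groups, -5.00 on the log2 scale. All 6 were lower in adults than at P1. Cdk1, the kinase that drives entry into mitosis, ran from 0 to 2.58 CPM in adults with a median of 0.929, against 28.2 to 83.7 CPM at P1 with a median of 66.2. The groups did not overlap, and 1 adult library, F4, had no Cdk1 count. Its medians at P4, P7, P14 and P35 were 68.6, 19.9, 3.66 and 1.85 CPM. The adult minus P1 change of Cdk1 was -5.78 ± 0.59 on the log2 scale (SE, n = 9 adult and 8 P1 libraries), a 54.8-fold fall with an edgeR adjusted p of 3.2e-11.

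Aurka, the Aurora kinase of the centrosome and spindle poles, had the smallest fall of this group. It ran from 0.913 to 2.91 CPM in adults with a median of 1.96, against 9.22 to 51.3 CPM at P1 with a median of 25.1. The groups did not overlap, and the highest P1 value was in P1 F4. Its change was -3.47 ± 0.41 (edgeR adjusted p = 1.3e-09). The polo-like kinase Plk1 changed by -5.01 ± 0.67, and the cyclins Ccna2, Ccnb2 and Ccnb1 by -5.11 ± 0.53, -4.99 ± 0.71 and -4.85 ± 0.72. A processed copy of Ccnb2 has its own row in the table, with 2559 counts in all against 15060 for Ccnb2, and reads shared by the copies could not be told apart.

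The spindle checkpoint genes, whose products delay anaphase while chromosomes are unattached, were all 4 lower in adults, with a median change of -3.94. Bub1, a checkpoint kinase at the kinetochore, ran from 0 to 0.908 CPM in adults with a median of 0, against 0 to 12.9 CPM at P1 with a median of 6.60. The groups overlapped only through P1 F4, the P1 library with no Bub1 count, and 5 of 9 adult libraries had none either. Its change was -5.12 ± 0.96 (edgeR adjusted p = 2.2e-05), resting on 31 adult counts in all.

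Mad2l1, the checkpoint protein that holds Cdc20 inactive, kept far more of its level. It ran from 5.95 to 13.4 CPM in adults with a median of 10.9, against 0.136 to 58.1 CPM at P1 with a median of 35.5. Only P1 F4 fell inside the adult range or below it at P1. Its medians at P4, P7, P14 and P35 were 36.2, 23.1, 11.7 and 9.84 CPM, and its P14 median was near the adult one. The change was -1.64 ± 0.35, a 3.13-fold fall (edgeR adjusted p = 0.00016). Bub1b and Ttk, also checkpoint kinases, changed by -4.20 ± 0.64 and -3.67 ± 0.78.

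Of the genes that trigger anaphase, 2 of 3 passed. Ube2c, the ubiquitin-conjugating enzyme of the APC/C, ran from 0.772 to 4.6 CPM in adults with a median of 1.76, against 15.5 to 132 CPM at P1 with a median of 69.1. The groups did not overlap. Its P4 median of 119 CPM lay above that of P1, but its P4 minus P1 change of 0.69 ± 0.43 did not pass (edgeR adjusted p = 0.54). The adult minus P1 change was -5.10 ± 0.49 (edgeR adjusted p = 7.4e-12), and that of Cdc20, the APC/C activator, was -4.22 ± 0.52.

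Espl1 encodes separase, the protease that cuts cohesin, and was the only member that did not pass between adults and P1. It ran from 0.757 to 3.20 CPM in adults with a median of 1.74, against 0 to 7.31 CPM at P1 with a median of 5.16. The groups overlapped. Its medians at P4, P7, P14 and P35 were 5.14, 2.24, 0.905 and 1.28 CPM. The adult minus P1 change was -1.27 ± 0.62 with an edgeR adjusted p of 0.092, while its P14 and P35 levels both passed as lower than P1.

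Both members that belong to the chromosomal passenger complex, which corrects faulty attachments and guides cytokinesis, fell. Aurkb, its kinase, ran from 0.0326 to 1.81 CPM in adults with a median of 0.445, against 0 to 43.8 CPM at P1 with a median of 25.1. P1 F4 had no Aurkb count, and the lists of the 2 ages overlapped only through it. The change of Aurkb was -5.19 ± 0.74 (edgeR adjusted p = 1.2e-07). Birc5 (survivin) ran from 0.844 to 6.26 CPM in adults with a median of 1.87, against 0.0682 to 84.2 CPM at P1 with a median of 35.4, and changed by -4.06 ± 0.50 (edgeR adjusted p = 4.4e-09). Again P1 F4 held the low P1 value.

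All 6 genes of the centromere and kinetochore fell, with a median change of -3.68. Cenpf, a large protein of the outer kinetochore, ran from 0.221 to 2.18 CPM in adults with a median of 0.817, against 1.5 to 27.0 CPM at P1 with a median of 17.6. It changed by -4.36 ± 0.51 (edgeR adjusted p = 1.5e-09). Nuf2, a subunit of the microtubule-binding Ndc80 complex, had the smallest fall here. It ran from 1.21 to 3.29 CPM in adults with a median of 1.63, against 0 to 25.1 CPM at P1 with a median of 14.0, and changed by -2.84 ± 0.51 (edgeR adjusted p = 1.1e-05). For both genes the only overlap came from P1 F4. The other Ndc80 complex genes among the members, Spc25 and Ndc80, changed by -4.36 ± 0.62 and -4.09 ± 0.83, so the fitted falls of 3 subunits of 1 complex ranged from -2.84 to -4.36. Cenpa, the histone variant that marks centromeres, and Cenpe, a kinetochore motor, changed by -3.26 ± 0.36 and -3.0 ± 0.52.

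The 6 genes of chromosome structure all fell but by unequal amounts. Top2a, the topoisomerase that disentangles sister chromatids, ran from 0.75 to 7.84 CPM in adults with a median of 1.42, against 0.136 to 68.8 CPM at P1 with a median of 41.7. P1 F4 was the low P1 library and Adult F3 the high adult one. The change was -4.11 ± 0.53 (edgeR adjusted p = 1.2e-08). Smc4, a core subunit of condensin, ran from 2.59 to 21.6 CPM in adults with a median of 17.1, against 0.545 to 79.6 CPM at P1 with a median of 57.8. P1 F4 lay below every adult library. The Smc4 change of -1.59 ± 0.36 was a 3.02-fold fall (edgeR adjusted p = 0.00032).

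Condensin genes split in the size of their fall. Smc2, the partner of Smc4 in both condensin complexes, changed by -1.61 ± 0.31. Ncapg and Ncaph, subunits of condensin I alone, changed by -3.77 ± 0.74 and -3.76 ± 0.58. Mki67, the coat protein of mitotic chromosomes known as Ki-67, changed by -3.96 ± 0.59. Its medians over the 6 ages, in order, were 11.9, 11.2, 14.2, 2.37, 1.4 and 0.908 CPM. The Mki67 medians of the first 3 ages thus lay between 11.2 and 14.2 CPM.

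The 6 genes of spindle assembly and motors fell by a median of 3.96 on the log2 scale. Kif11, the motor that pushes spindle poles apart, ran from 0 to 3.75 CPM in adults with a median of 1.13, against 6.65 to 54.9 CPM at P1 with a median of 17.0. The groups did not overlap, and the highest P1 value was in P1 F4. Its change was -4.16 ± 0.58 (edgeR adjusted p = 6.7e-08). Tpx2, which activates Aurora A on the spindle, ran from 1.08 to 5.03 CPM in adults with a median of 3.03, against 0.204 to 45.0 CPM at P1 with a median of 23.1. Only P1 F4 overlapped the adult range or fell below it. Tpx2 changed by -2.54 ± 0.49 (edgeR adjusted p = 3.4e-05). Nusap1, Kif4, Kif2c and Hmmr changed by -4.15 ± 0.42, -4.08 ± 0.71, -3.85 ± 0.67 and -3.31 ± 0.61.

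Of 6 genes of the central spindle and cytokinesis, 5 fell. Ect2, the exchange factor that activates RhoA at the cleavage site, ran from 0.039 to 1.07 CPM in adults with a median of 0.227, against 0 to 20.2 CPM at P1 with a median of 10.8. Only P1 F4 overlapped the adults. Its change was -4.14 ± 0.79 (edgeR adjusted p = 2.5e-05). Prc1, Kif23, Racgap1 and Kif20a, which bundle and organise the central spindle, changed by -4.10 ± 0.59, -3.76 ± 0.64, -2.98 ± 0.38 and -2.53 ± 0.67.

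Anln was the only member that was higher in adults. It encodes anillin, the scaffold of the contractile ring, and is also known to be made by myelinating oligodendrocytes. It ran from 3.90 to 26.9 CPM in adults with a median of 10.8, against 0 to 6.57 CPM at P1 with a median of 4.58. The ranges overlapped. Its medians at P4, P7, P14 and P35 were 5.29, 4.18, 5.85 and 13.3 CPM, and the highest adult value was in Adult F3. The change was 1.57 ± 0.43, a 2.96-fold rise (edgeR adjusted p = 0.0023). Beside it, all 12 myelin genes listed were higher in adults, with a median change of 3.48, and their summed level was 813 to 2558 CPM in adults, against 113 to 301 CPM at P1. Adult F3 also had the highest myelin sum among adults. None of the 12 myelin genes was at 0 in all libraries of any age, and their part in the Anln result was not tested.

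**Figure D3:**
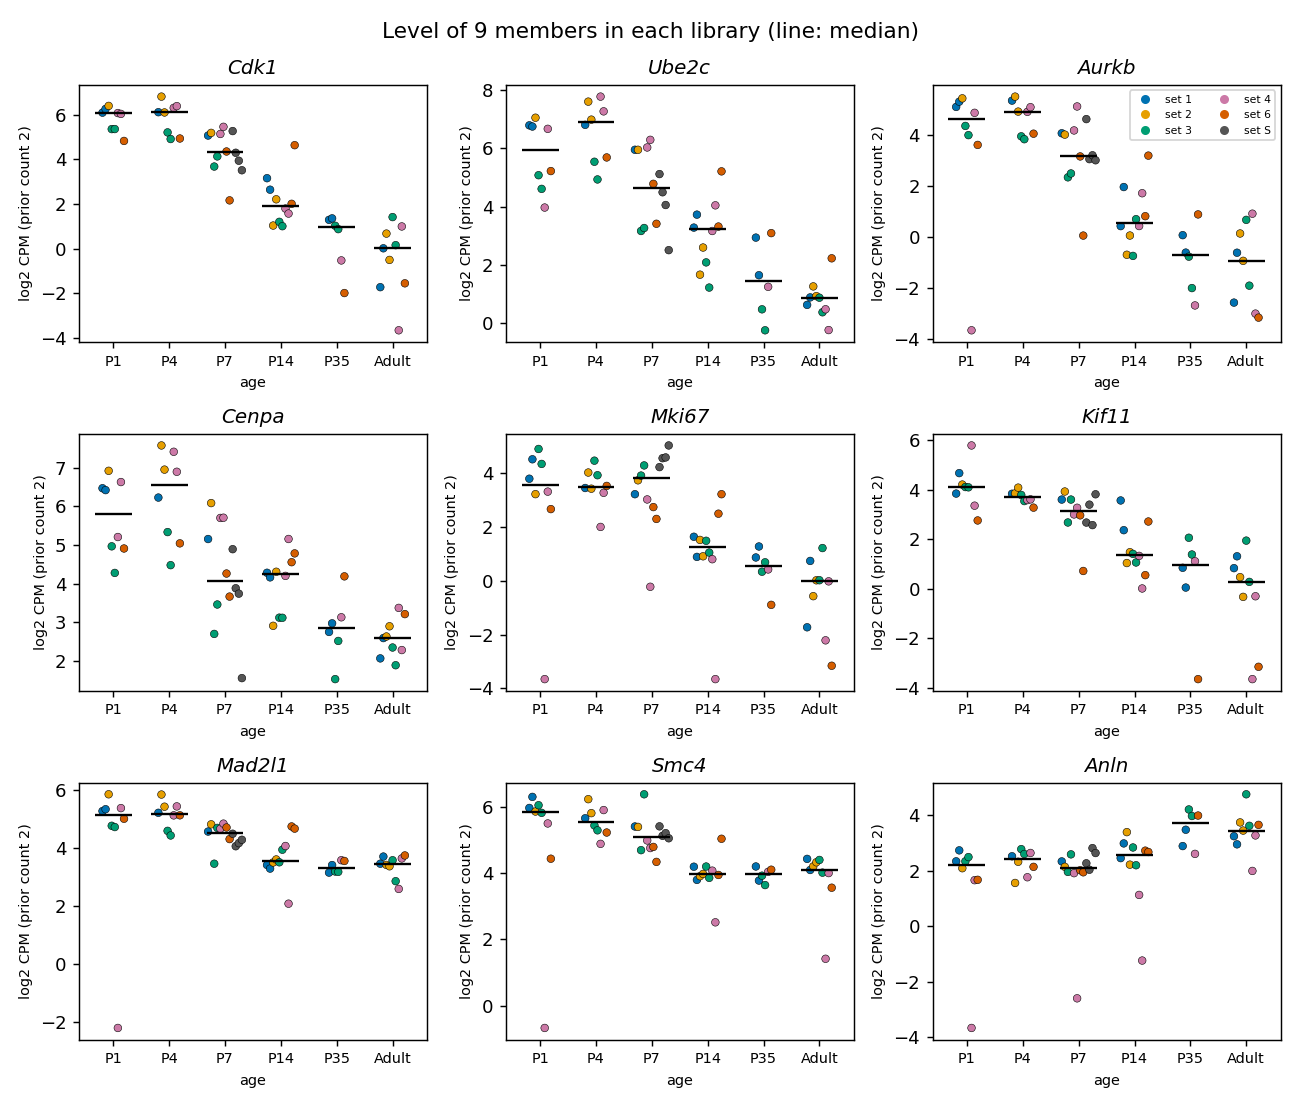
Log2 CPM (vertical axes, prior count of 2) of 9 members in each of the 53 libraries, by age (horizontal axes) and coloured by replicate set, with the median as a line. Cdk1, Ube2c, Aurkb, Mki67 and Kif11 fall far over the ages, Mad2l1 and Smc4 level off from P14, and Anln is higher at P35 and in adults. The lone low points at P1 are P1 F4.

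Whether the ranges of the 2 ages met depended largely on P1 F4. Over all libraries, 8 members had no overlap between adults and P1 (Cdk1, Aurka, Plk1, Bub1b, Ube2c, Nusap1, Kif11 and Cenpa). For Aurka, Bub1b, Nusap1 and Kif11 among them, P1 F4 held the highest P1 value (51.3, 35.2, 96.6 and 54.9 CPM). All 8 were lower in adults, and of all genes tested 2.87% lay wholly lower in adults and 6.69% did not overlap in either direction. Without P7 M6, P14 M6 and the 3 libraries with the fewest detected genes this count was 35, all lower, and 5.64% of all genes lay wholly lower and 10.1% did not overlap. By the edgeR test, 44.3% of all genes passed between these ages.

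The timing of the decline was followed in 5 steps between neighbouring ages, and neighbouring steps share the libraries of the age between them. The steps differ in length, and a change over a step is not a rate per day. No member passed between P4 and P1 by edgeR, DESeq2 or limma voom, where edgeR passed 0.687% of all genes (0.333% as lower and 0.354% as higher), and none had an unadjusted p under 0.05. The median member change of this step was 0.11. Between P7 and P4, only Cenpa passed, as lower (0.748% of all genes passed, 0.202% as lower and 0.546% as higher), although all 39 estimates were below 0, 20 members had an unadjusted p under 0.05 and the median was -1.10. Cenpa ran from 2.85 to 67.8 CPM at P7 with a median of 16.8, against 22.2 to 191 CPM at P4 with a median of 96.9. The groups overlapped. Its change was -1.56 ± 0.35 (edgeR adjusted p = 0.025). Without P7 M6 and P14 M6 no member passed in this step, 16 had an unadjusted p under 0.05, 0.132% of all genes passed and the median was -0.92. The change of Cenpa was then -1.45 (edgeR adjusted p = 0.067). The count was also 0 without P4 F2, P4 F4 or P7 M6 alone, 2 without P7 F10, P7 F40 or P7 MS2, 3 without P14 M6 alone and 8 without P1 F4. In these fits 0.0909% (without P7 M6) to 2.5% (without P1 F4) of all genes passed.

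Between P14 and P7, 19 members passed, all lower, where 3.15% of all genes passed as lower, 4.19% as higher and 7.34% in either direction. The median change was -1.59 for the members and 0.03 for all genes tested. All estimates but that of Anln, at 0.45 ± 0.41, were below 0, and 33 members had an unadjusted p under 0.05. The largest falls that passed were those of Ect2 at -2.57 ± 0.73, Aurkb at -2.48 ± 0.66, Ndc80 at -2.38 ± 0.76, Ccnb1 at -2.15 ± 0.64 and Cdk1 at -2.02 ± 0.50. The smallest edgeR adjusted p values were 0.0013 for Nusap1 and 0.0026 for Ube2c. By role, 4 of 6 entry kinases and cyclins passed, 0 of 4 checkpoint genes, 2 of 3 anaphase genes and both passenger genes. Of the other groups, 3 of 6 kinetochore genes, 3 of 6 chromosome structure genes, 2 of 6 spindle genes and 3 of 6 cytokinesis genes passed.

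This step was the one most changed by the libraries that stand apart. P7 M6 and P14 M6 were picked out in part by the members' own sums. A larger fall and less overlap without them thus follow in part from that choice. Without P7 M6 and P14 M6, 33 members passed as lower, the 19 above among them, and 14.5% of all genes passed. The median change was then -2.0. The 6 that did not pass were Mad2l1, Kif4, Cenpa, Nuf2, Espl1 and Anln. With all libraries no member had ranges at P14 and P7 that did not overlap, and without P7 M6 and P14 M6 there were 11, Cdk1, Ccna2, Ccnb1, Aurkb, Cdc20, Nusap1, Kif2c, Ncaph, Smc4, Prc1 and Racgap1. All 11 were lower at P14. Of all genes tested, 0% had ranges that did not overlap with all libraries, and 0.925% without these libraries, 0.541% as lower at P14. For Cdk1, P14 ran from 1.92 to 24.7 CPM with a median of 3.66, against 4.38 to 43.7 CPM at P7 with a median of 19.9. The highest Cdk1 value at P14 was in P14 M6 and the lowest at P7 in P7 M6. Within replicate sets, the median P14 minus P7 change was -1.87 in set 1, -2.58 in set 2, -1.91 in set 3, -1.97 in set 4 and 0.11 in set 6, the set of both libraries. Set S holds P7 libraries alone, gives no such value and adds nothing to the fitted age changes of the model with the set term. Leaving out single libraries gave 30 members without P14 M6 and 8 without P7 F4. It gave 10 without P7 M2, P14 F2 or P14 F3 and 12 without P7 F30, P14 M2 or P14 M3. In these fits 4.26% (without P14 F3) to 12% (without P14 M6) of all genes passed. Leaving out all of set 3 took the count to 0.

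**Figure D4:**
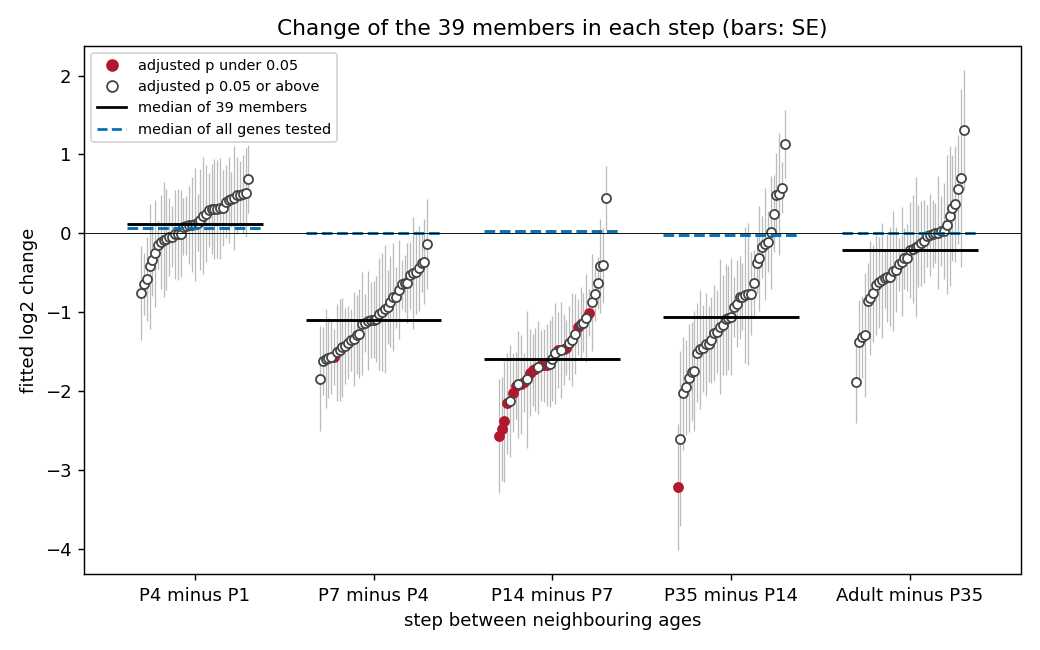
Each point is the fitted log2 change of 1 of the 39 members (vertical axis, bars are SE) in a step between neighbouring ages (horizontal axis), ordered by size within the step. Filled points have an adjusted p under 0.05. The black line is the members' median, which was -1.10 for P7 minus P4, -1.59 for P14 minus P7 and -1.06 for P35 minus P14. The dashed line is the median of all genes tested. The steps differ in length.

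After P14 few members passed in a single step. Between P35 and P14 only Kif2c passed, a motor that takes microtubules apart, at -3.21 ± 0.80 (edgeR adjusted p = 0.027), where 1.49% of all genes passed, 1.07% as lower and 0.414% as higher. Kif2c ran from 0 to 0.57 CPM at P35 with a median of 0.198, against 0.344 to 4.42 CPM at P14 with a median of 1.25. The groups overlapped, and without P7 M6 and P14 M6 its change was -2.75 and did not pass (edgeR adjusted p = 0.055), where 0.984% of all genes did. The median member change of this step was -1.06. Between adults and P35 no member passed and no gene of all tested did (0%) by edgeR, with 3 members at an unadjusted p under 0.05 and a median member change of -0.21. DESeq2 and limma voom passed no member either. The lowest estimate was that of Cenpf at -1.88 ± 0.52. The count between P35 and P14 was 0 without any one of P35 M10, P35 F3, P35 F4, P35 F6, P14 F1 or P14 M6, and 2 without P14 F2, and 0.455% to 3.76% of all genes passed in these fits, the highest share without P14 F2.

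Over longer spans more members passed. At P7, 4 members were lower than at P1 (Aurka, Nusap1, Cenpa and Racgap1), where 14.9% of all genes passed, 6.52% as lower and 8.35% as higher. At P14, 38 were lower than at P1, all but Anln, where 38% of all genes passed, 17.1% as lower and 20.9% as higher. At P35, 38 were lower and Anln was higher than at P1, where 39.8% of all genes passed, 18.6% as lower and 21.2% as higher. In adults, 9 were lower than at P14 (Cdk1, Ccna2, Plk1, Ube2c, Kif11, Cenpa, Cenpf, Spc25 and Mki67), where 3.92% of all genes passed, 2.53% as lower and 1.38% as higher. Without P7 M6 and P14 M6, Cdk1, Ccna2, Ube2c and Cenpa were the 4 still lower, where 1.88% of all genes passed as lower. Between P7 and P1, Aurka and Nusap1 were then the 2 still lower, where 5.13% of all genes passed as lower. The count between P7 and P1 was 13 without P1 F4, 7 without P1 F6 and 2 without P1 M2, P7 F3 or P7 M6. That between adults and P14 was 20 without P1 F4, 17 without P14 F2, 5 without Adult M1, Adult F2, Adult F4 or P14 F1, and 4 without Adult F1, Adult M2, Adult M60 or P14 M6. In these fits edgeR passed 11.7% to 15.7% of all genes between P7 and P1, the highest share without P1 F4, and 2.39% to 7.57% between adults and P14, the highest also without P1 F4.

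The step with the lowest estimate was P14 minus P7 in 25 members, P7 minus P4 in 7, P35 minus P14 in 6 and adult minus P35 in 1. These counts were 33, 4, 1 and 1 without P7 M6 and P14 M6. As a median over the 38 members other than Anln, the P7 minus P4 step made up 26.5% of the whole log2 change between P1 and adulthood, the P14 minus P7 step 40.6%, the P35 minus P14 step 28.9% and the adult minus P35 step 6.99%. The shares of these 4 steps were 22.4%, 53.9%, 18.7% and 6.92% without P7 M6 and P14 M6. The P14 minus P7 step spans more days than the P7 minus P4 step, and the adult age is not given. These counts and shares therefore do not show in which step the fall per day was largest. The share of the P14 minus P7 step ran from 14.2% for Nuf2 to 74.3% for Smc4. The difference between the P14 minus P7 change and the P7 minus P1 change was tested in the same fit. No member passed by edgeR, DESeq2 or limma voom, where 0.596% of all genes did by edgeR (0.445% with a negative and 0.152% with a positive difference), 1 member had an unadjusted p under 0.05, and the median difference was -0.52. Without P7 M6 and P14 M6 no member passed, where 0.837% of all genes did by edgeR. In that fit 8 members had an unadjusted p under 0.05 and the median difference was -1.30. A steeper fall after P7 than before it was therefore not shown for any single member.

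**Figure D5:**
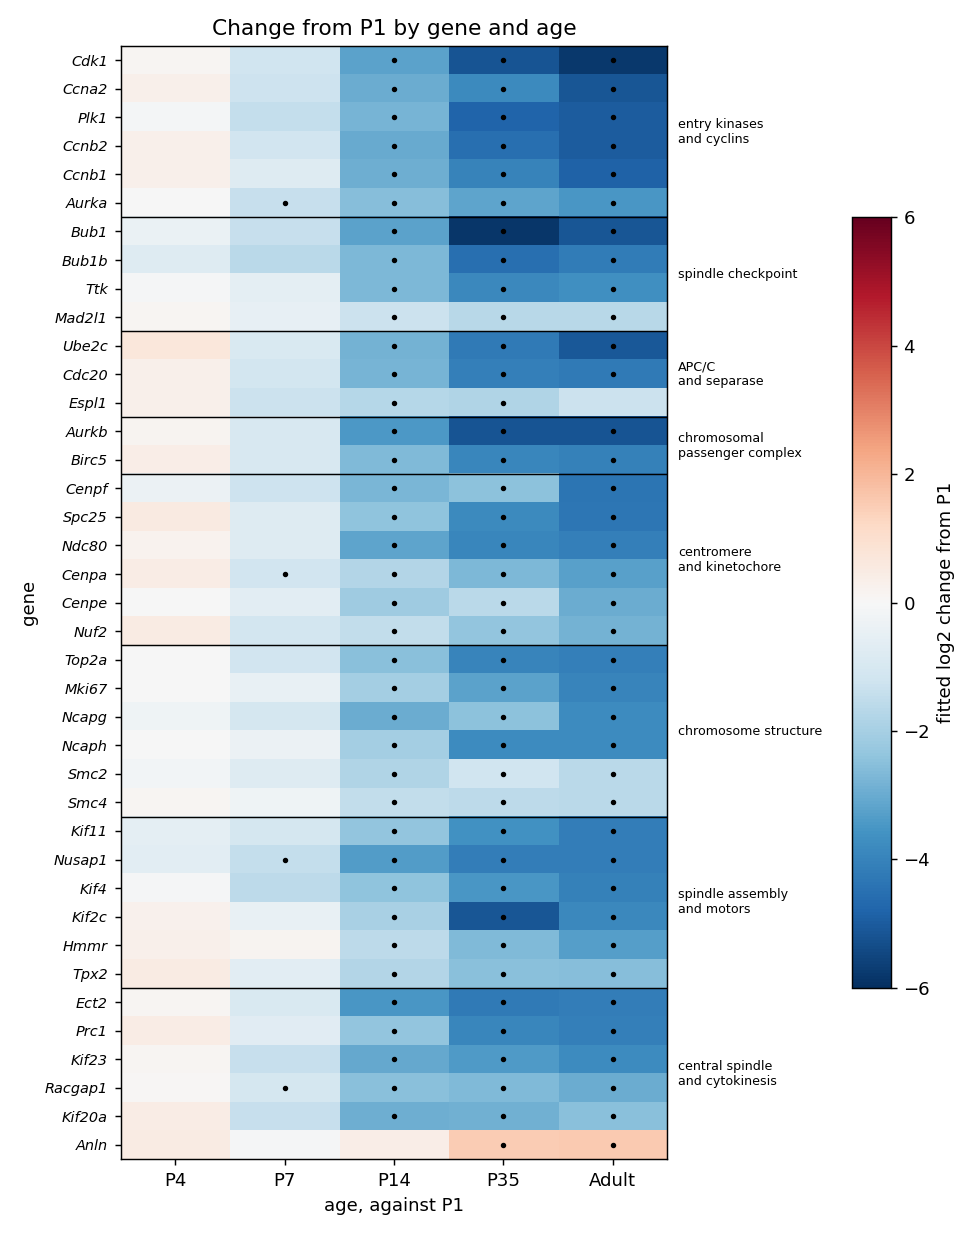
Fitted log2 change from P1 (colour scale) for each of the 39 members (rows, grouped by role), with a column for each later age. Dots mark an adjusted p under 0.05. From left to right the columns hold 0, 4, 38, 39 and 38 dots, and Anln is the only row above 0 in adults.

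Levels between genes were compared as CPM per kilobase of merged exons, from median CPM. In adults the order began with Smc4 at 3.29, Smc2 at 1.75, Mad2l1 at 1.31 and Anln at 1.19 CPM per kilobase, and Cdk1 was in place 20 at 0.188. At P1 it began with Ube2c at 26.6, Cdc20 at 15.9, Ccnb2 at 15.6, Spc25 at 13.7 and Cdk1 at 13.4, and ended with Espl1 at 0.589 and Anln at 0.505. The first 3 in adults had changes of -1.59, -1.61 and -1.64, while Espl1, with the smallest fall at -1.27, was in place 19 at 0.198. At P1, Smc4, Smc2 and Mad2l1 had been in places 7, 14 and 19.

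Within an age, each member correlated positively with the mean of the others, but no such value was computed for other genes. After each library's log2 CPM was set against the mean of its age, the correlation of each member with the mean of the other members over 48 libraries (without the 5 that stand apart) was 0.18 for Cenpa at the lowest and 0.76 for Tpx2 at the highest. Next to Tpx2 came Ccna2 at 0.74 and Top2a at 0.72, and next to Cenpa came Nusap1 at 0.24 and Ube2c at 0.26. The libraries share replicate sets and depth, and these values are descriptions only. Differences between replicate sets were not taken out of these correlations.

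No difference between the sex labels was detected in the members. None passed for female minus male over all ages by edgeR, DESeq2 or limma voom, where 0.0202% of all genes did by edgeR, and none had an unadjusted p under 0.05. The median change was -0.16, and the estimates ran from -0.87 for Ndc80 to 0.28 for Kif11. By the same tools, no member passed for a difference of the age course between the sexes, where 0% of all genes did by edgeR, and 1 had an unadjusted p under 0.05. Because the Y-linked transcripts of 11 libraries went against their label, this compares the labels rather than the sexes of the animals.

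Other genes of the cell cycle were mostly lower in adults too. Of 103 other mitotic genes tested, 83 were lower and 3 higher in adults than at P1, with a median change of -2.21. The smallest adjusted p values were those of Cks1b, a Cdk subunit, at -3.30 ± 0.28, the kinase Pbk at -5.25 ± 0.46, the passenger complex gene Cdca8 (borealin) at -3.92 ± 0.37, and Ckap2l at -4.93 ± 0.48. Of 44 DNA replication genes, 38 were lower and 1 higher, with a median of -1.67. Tk1, a thymidine kinase, changed by -4.89 ± 0.47, the histone chaperone gene Chaf1b by -5.98 ± 0.63, the helicase gene Mcm7 by -2.42 ± 0.28 and the origin kinase Cdc7 by -3.37 ± 0.40. Of 23 G1 cyclins, their kinases and cell cycle inhibitors, 11 were lower and 3 higher, with a median of -0.45. Cdk6 changed by -3.94 ± 0.36, Cdk4 by -1.81 ± 0.17, Ccnd2 by -1.73 ± 0.23 and the inhibitor gene Cdkn1c by -2.09 ± 0.28. The difference between these lists and the members was not tested.

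Between P14 and P7, the same lists showed 23 other mitotic genes as lower and 2 as higher, 8 DNA replication genes as lower, and 2 G1 genes as lower. The medians were -0.90, -0.62 and -0.23. Thus 19 of 39 members, 23 of 103 other mitotic genes and 8 of 44 replication genes were called lower in this step, beside 3.15% of all genes. Without P7 M6 and P14 M6 the counts were 33 of 39, 51 of 103 and 19 of 44, beside 6.82% of all genes, and 6 of 23 G1 genes were lower.

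Markers of other cells moved with age as well, and their part in the members' decline was not tested. All 11 markers of intermediate progenitors and young neurons were lower in adults than at P1, with a median change of -3.58, among them Sox11 at -4.38 ± 0.31, Dlx1 at -2.73 ± 0.20, Dlx2 at -3.58 ± 0.28 and Dcx at -5.71 ± 0.51. Their summed level was 124 to 430 CPM in adults, against 657 to 2913 CPM at P1. None of them was at 0 in all libraries of any age. P14 M6 had the highest such sum at P14, 1093 CPM.

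Of 16 markers of mature astrocytes, 15 were higher in adults and none lower, with a median change of 2.14. Slc1a2, the main glutamate transporter, changed by 4.24 ± 0.34, Aldoc by 3.35 ± 0.28, S100b by 5.77 ± 0.49 and Glul, glutamine synthetase, by 3.45 ± 0.31. The summed astrocyte level was 4579 to 29060 CPM in adults, against 983 to 6879 CPM at P1. Neuronal transcripts were present in every library, with a summed level of 16 markers of 3487 to 13960 CPM in adults, against 1813 to 8838 CPM at P1. Of these 16, 10 were higher and 4 lower in adults, among them Eno2 at 3.11 ± 0.25, Camk2a at 3.97 ± 0.35, Snap25 at 3.05 ± 0.27 and Neurod6 at -2.96 ± 0.28. The sums differed by replicate set. In adults the neuronal sum was 3487 to 6589 CPM in sets 1, 2 and 4 and 8952 to 13960 CPM in sets 3 and 6. The astrocyte sum was 19990 to 29060 CPM and 4579 to 14650 CPM in those sets. At P1 the members' sum was 1259 to 1412 CPM in sets 1 and 2 and 469 to 885 CPM in sets 3 and 6. In set 4 it was 993 CPM in P1 M4 and 407 CPM in P1 F4. A link between these sums was not tested.

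Of 10 oligodendrocyte precursor markers, 4 were higher and 3 lower in adults, with a median of 0.05. Their summed level was 352 to 621 CPM in adults, against 400.4 to 1859 CPM at P1. Of 12 microglial markers, 5 were higher and none lower, and their summed level was 38.2 to 108 CPM in adults, against 20.6 to 123 CPM at P1. Of 13 endothelial and mural markers, 3 were higher and 2 lower, with sums of 36.9 to 169 CPM in adults, against 40.9 to 118 CPM at P1. Of 5 red blood cell genes tested, none passed, with sums of 112 to 960 CPM in adults, against 76 to 1988 CPM at P1.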

How the data were processed

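The deposited values are whole-number counts of reads per gene, not normalized, in 1 table with a column for each of 53 mice, per the file headers. Per the submitters' processing notes, the tools were CASAVA, HISAT2, SAMtools and featureCounts and the build GRCm38.p5. Their versions, the annotation release and any use of strand in counting were not given in the sources read here. The 4 P7 mice sequenced in both runs (F10, M2, M6 and F6) have 1 column each, with total counts of 42222297 to 48541139. No other age was in the second run, so run and age cannot be fully told apart at P7. A part of the run in the P7 levels was not tested. Total counts of 14768178 to 48541139 per library leave many late levels of the members on few counts. At least 1 exon of 9 members overlaps a gene on the opposite strand and of 1 member (Top2a) a gene on the same strand, so their counts may hold reads of both.

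Counts were tested with edgeR 4.0.16 (TMM normalization, robust quasi-likelihood fit, F test) in 1 model of age and replicate set, with the sexes pooled. The filter of edgeR (minimum count 10) left 19793 genes, and p-values were adjusted over these by Benjamini-Hochberg with a threshold of 0.05. Standard errors are the log2 change divided by the root of F. Libraries of a group come from separate animals. The sets are the first digit of the replicate number, and the P7 libraries of the second run alone are a set of their own. That set holds no other age, so its libraries enter the normalization and spread but not the fitted age changes. Members, roles and gene lists were chosen with earlier results of these data known, so counts over them are descriptions. Genes named with ranges are those with the largest and smallest adult minus P1 change in each of 8 roles, and any member that did not pass or went the other way. Of the other 11 lists, the 4 genes with the smallest adjusted p were named where any passed. Cenpa and Kif2c in their steps, Mki67 and the Cdk1 values at P14 and P7 were added after their values were seen.

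Alternatives were DESeq2 1.42.0, limma voom 3.58.1, other filters, no set term, added sex terms, left-out sets and each library left out in turn. Those fits kept the genes and dispersion trend of the full fit and estimated normalization and quasi-likelihood spread anew. Scripts were tested on simulated data. Gene positions came from GENCODE M21 on GRCm38, and promoters from RefSeq on GRCm38.p6.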

Additional observations from a re-analysis of the deposited data

Results flagged for a closer look

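Within each age of 6 to 10 libraries (P7 has 12 and was not examined), a library was picked out by Dixon's criterion. Its gap to the nearest other had to exceed a set share of the range of its age, smaller for ages with more libraries. Chance alone flags about 1 in 20 groups, and 53 of 200 groups met the criterion here. Of these, 30 came from P1 F4. Values of single genes are log2 CPM with a prior count of 2, on which a gene with no count stands at -3.66.

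In P1 F4, no count (-3.66) was found for Ccnb1, Aurkb, Bub1, Ttk, Kif20a, Kif23, Kif2c, Cenpe, Ndc80, Nuf2, Spc25, Ncapg, Ncaph, Prc1, Ect2, Anln, Mki67 and Espl1. The same library was low for Ccna2, Birc5 and Kif4 (each -2.76), Ccnb2, Mad2l1 and Top2a (each -2.21), Tpx2 and Hmmr (each -1.82), Cdc20 (-1.25), Smc4 (-0.68), Cenpf (0.66) and Racgap1 (2.32). Plk1 was low in P1 F6 (2.58) and Ect2 in P4 F4 (1.48).

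At P14, the summed level of the 39 members was high in P14 M6 (451 CPM), as was Tpx2 there (4.16). In P14 M4, Kif20a, Mki67 and Hmmr had no count (-3.66), and Anln (-1.23), Smc2 (0.66) and Smc4 (2.52) were low. Espl1 had no count in P14 F1 (-3.66). At P35, Kif11, Ncapg, Hmmr and Espl1 had no count in P35 F6 (-3.66), Cdc20 was low in P35 M10 (-0.21) and Prc1 in P35 F4 (-3.09). Among adults, the summed level was high in Adult F3 (174 CPM), as was Top2a there (2.99). Bub1 was high in Adult M4 (-0.019) and Nusap1 in Adult M60 (2.36). Kif23 had no count in Adult F4 (-3.66), and Smc4 was low there (1.42).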

How the results depend on the processing

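The counts of members between adults and P1, P14 and P1, P35 and P1, P4 and P1, and adults and P35, and over all ages, stayed within 1.5 times of the main count under each alternative run, as did those of the step difference and of the sex labels. The other 5 counts did not, and are given below. Of single members, none turned its direction between adults and P1 or between P14 and P7 in any of the fits across sets. Within sets, the adult minus P1 change was above 0 for 1, 1, 1, 7 and 2 members in sets 1, 2, 3, 4 and 6, and the P14 minus P7 change for 1, 1, 2, 8 and 22. For no listed value was the cause of a change tested.

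Here and in the next paragraph member counts are given out of all genes called in the same fit, unless stated otherwise. These fits tested 19561 to 20308 genes, or 15492 with a mean of at least 1 CPM. Between P14 and P7 (19 of 1453), the count was 9 of 717 with 12 groups of age and sex label. It was 29 of 2121 without the 3 libraries with the fewest detected genes and 33 of 2864 without P7 M6 and P14 M6. Without the 11 libraries whose Y-linked transcripts go against the label (sex-discordant below) it was 4 of 396. Without all of these libraries it was 34 of 3730. It was 3 of 559, 1 of 492, 0 of 15 and 33 of 2443 without set 1, 2, 3 and 6. The median change of -1.59 was -2.19 without set 6, -2.58 within set 2 and 0.11 within set 6. The median of the step difference was -1.44 without all of these libraries.

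Between P7 and P4 (1 of 148), the count was 5 of 246 with limma voom. It was also 5 with DESeq2, where more genes were called in all than with limma voom. It was 2 of 189 with a mean of at least 1 CPM and 2 of 349 with 12 groups. It was 9 of 734 without the 3 libraries with fewest detected genes and 3 of 331 without set 4. It was 0 of 10 without the replicate block, 0 of 26 without P7 M6 and P14 M6 and 0 of 3 without all of these. It was 0 of 65 and 12 without set 1 and 6. Without the sex-discordant libraries, set 2 or set 3 no gene of all tested was called. The 0 in those fits therefore says nothing about the members in particular. Between P35 and P14 (1 of 294), the count was 4 of 716 with DESeq2 and 7 of 1122 without the 3 libraries. It was 2 of 516 without all of these and 2 of 740 without set 4. It was 0 of 6 without the block, 0 of 194 without P7 M6 and P14 M6 and 0 of 134 without the sex-discordant libraries. It was 0 of 33, 18 and 56 without set 1, 3 and 6. Between P7 and P1 (4 of 2943), the count was 7 of 3897 with DESeq2, 10 of 3543 with limma voom and 15 of 3618 without the 3 libraries. It was 2 of 2354 without P7 M6 and P14 M6 and 7 of 2003 without all of these. It was 2 of 2295, 1 of 1579 and 13 of 2918 without set 1, 3 and 4. Between adults and P14 (9 of 775), the count was 3 of 127 without the block, 20 of 1376 with DESeq2 and 22 of 1921 without the 3 libraries. It was 4 of 571 without P7 M6 and P14 M6, 4 of 329 without the sex-discordant libraries and 15 of 1187 without all of these. It was 1 of 168, 5 of 620, 14 of 997 and 3 of 400 without set 1, 2, 4 and 6. The median adult minus P1 change (-4.06) was -3.47, -1.31 and -3.04 within sets 3, 4 and 6. Exclusions of the apart-standing and sex-discordant libraries, and the P14 minus P7 values within sets, were chosen after seeing the data.

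With each of 53 libraries left out, the counts ran from 38 to 39 (adult minus P1), 36 to 38 (P14 minus P1) and 38 to 39 (P35 minus P1). They stayed at 39 over all ages. In the main fit 44.3%, 38%, 39.8% and 47% of all genes passed in these comparisons, in the same order. The shares of all genes with 1 library left out are not given here for them. The other counts ran from 8 to 30 (P14 minus P7), 0 to 8 (P7 minus P4), 0 to 2 (P35 minus P14), 2 to 13 (P7 minus P1) and 4 to 20 (adult minus P14). They stayed at 0 for P4 minus P1, adult minus P35 and the step difference. Median changes ran from -4.07 to -3.84 (adult minus P1), -1.63 to -1.10 (adult minus P14), -0.40 to -0.13 (adult minus P35), -2.90 to -2.46 (P14 minus P1), -1.94 to -1.41 (P14 minus P7), -1.16 to -0.30 (step difference), -3.83 to -3.59 (P35 minus P1), -1.22 to -0.71 (P35 minus P14), -0.01 to 0.28 (P4 minus P1), -1.18 to -0.87 (P7 minus P1) and -1.23 to -0.92 (P7 minus P4).

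The replicate set is part of the model. Deviations from the age means correlated by a median of 0.37 over 202 pairs of libraries of the same set and different ages (from -0.15 to 0.74) and by -0.09 over 958 pairs of different sets. Without the replicate block, counts other than those above stayed within 1.5 times. Depth limits the late values, since members such as Bub1 held 31 counts over all 9 adult libraries.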
